A study of Mus musculus with 2 samples.

Results

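The 67 canonical histone genes of the mouse were examined in single cells of PyMT-M and PyMT-N mammary tumors. They were taken by symbol from the 33696 genes counted, as every linker histone H1f0 to H1f5 and every H2ac, H2bc, H3c and H4c gene. They comprise H1f0, 5 further H1 genes, 18 H2A, 18 H2B, 12 H3 and 13 H4 genes. In the genome annotation 53 of the 67 genes lie on chromosome 13, 10 on chromosome 3, 2 on chromosome 11, and 1 each on chromosomes 6 and 15. The 67 genes held 167757 UMIs (unique molecular identifiers, each counted as 1 captured transcript) in the classified cells of both libraries. A total of 60 genes reached 50 UMIs, 7 stayed under 50, and 2 of these (H2ac1 and H2bc1) had none.

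Both tumor models are sublines of MMTV-PyMT, a model in which the mammary tumor virus promoter drives the polyoma middle T antigen, and were grown as transplanted cell lines in female C57BL/6 mice. The study classes PyMT-M as macrophage-rich (High-MAC) and PyMT-N as macrophage-poor (Low-MAC). Cells from 3 tumors per subline were depleted of CD45+ and Ter119+ cells, enriched and sorted for the endothelial proteins CD31 and CD144, and pooled into 1 droplet 3′ library per subline. There are thus 2 libraries, no replicate of either condition and no test between them, and library and condition cannot be told apart. All intervals given are at 95% and cover counting error only.

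Canonical histone genes supply the proteins that package newly made DNA, and most are transcribed when a cell replicates its genome. Their messenger RNAs typically end in a conserved stem-loop in place of a poly(A) tail, and stem-loop binding protein (Slbp) carries them through processing, translation and decay. The core histones H2A, H2B, H3 and H4 form the nucleosome, and H1 binds the linker DNA between nucleosomes. H1f0 is a replication-independent linker histone with a polyadenylated transcript and is given on its own, so that the summed level below covers the other 66 genes. Libraries primed on poly(A), as here, capture only part of the stem-loop transcripts, so levels of different histone genes are not levels of their total RNA. Differences between cell states and groups are likewise those of captured RNA.

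Cells were classed by marker UMIs and split into cycling (at least 4 UMIs of Mki67, Top2a, Mcm5 and Pclaf together) and non-cycling. Blood endothelial cells (Pecam1, Flt1, Emcn and Kdr) numbered 311 in PyMT-M (74 cycling, 237 non-cycling) and 1035 in PyMT-N (107 and 928). Tumor-gated cells (Krt8, Krt18 and Rhox5, without Pecam1 or Flt1) numbered 4864 in PyMT-M (3493 cycling, 1371 non-cycling) and 3298 in PyMT-N (151 and 3147). Lymphatic cells (Prox1, Mmrn1 and Reln) numbered 17 and 182 in PyMT-N, while PyMT-M had 7, none of them cycling. Cycling cells were thus 23.8% (19.2 to 28.9) of blood endothelial cells in PyMT-M and 10.3% (8.55 to 12.4) in PyMT-N, and 71.8% and 4.58% of tumor-gated cells. Median depth was 8676 and 6748 UMIs in cycling and non-cycling PyMT-M blood endothelial cells, 18291 and 12393 in those of PyMT-N, and 19462 to 34999 in tumor-gated cells. Endothelial genes outside the gate (Cdh5, Tie1 and 8 others) summed to 6132 and 6114 CPM in the blood endothelial cells, CPM being the UMIs of a gene per 1000000 UMIs of the group. Lymphatic genes outside the gate summed to 12990.3 CPM in the lymphatic cells of PyMT-N against 139 CPM in its blood endothelial cells. In the tumor-gated cells 8 further epithelial genes summed to only 3.68 and 5.22 CPM, with Krt5 at 0 in both libraries and Krt19 at 0 in PyMT-M, against 99.7 and 485 CPM for 8 fibroblast and pericyte genes. Not all of the latter were high, with Lum at 0.191 and 1.60 CPM and Rgs5 at 0.058 and 0.132 CPM. The endothelial genes outside the gate summed to 100 and 18.8 CPM in tumor-gated cells, in PyMT-M mainly from Eng (59.9 CPM) and Egfl7 (34.3 CPM). These cells are therefore called tumor-gated after their rule, since the epithelial markers that are independent of the gate were nearly absent. Of the gate genes, Rhox5, Krt8 and Krt18 were at 669, 268 and 0.058 CPM in PyMT-M tumor-gated cells. In those of PyMT-N they were at 14.5, 808 and 1003 CPM, so cells passed the gate largely on different genes. The libraries shared 20 cell barcodes.

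The feature that sets these transcripts apart can be read from their ends. In the GENCODE M21 annotation (GRCm38), all 67 genes had a protein-coding transcript, and 44 of the longest ones held an exact stem-loop, a run of 6 paired bases opening with GG around a loop of 4. Of all 67, 17 had a polyadenylation signal (AATAAA or ATTAAA) within 50 bases of the annotated end, and 12 of these had the stem-loop as well. A further 18 had neither, and several of their annotated transcripts are short, as H2ac22 (393 bases), H2bc13 (381) and H4c12 (312). Where the annotation stops before the true end, neither feature could be seen. The stem-loops of genes on which the results turn are shown 5′ to 3′, with the 16 bases of stem and loop in capitals. Each lies in the only exon of its gene, beyond the coding region.
H2ac24 (chr13:21833029-21833044, minus strand): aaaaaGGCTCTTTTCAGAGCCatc
H2ac8 (chr13:23570668-23570683, minus strand): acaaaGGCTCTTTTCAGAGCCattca
H1f4 (chr13:23621782-23621797, minus strand): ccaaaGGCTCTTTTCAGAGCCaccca
H3c3 (chr13:23745047-23745062, minus strand): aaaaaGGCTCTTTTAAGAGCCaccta
H4c4 (chr13:23581950-23581965, plus strand): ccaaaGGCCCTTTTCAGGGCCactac
H4c9 (chr13:22040966-22040981, minus strand): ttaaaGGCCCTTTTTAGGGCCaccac
H2ac25 (chr11:58955172-58955187, plus strand): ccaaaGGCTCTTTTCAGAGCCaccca

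The form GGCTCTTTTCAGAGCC was the commonest, in 25 genes, and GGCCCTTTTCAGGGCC followed with 7. The annotated transcript of H2ac24 ends 3 bases past the stem-loop. Those of H2ac8, H4c9 and H2ac25 run on for 151, 330 and 1643 bases past it, with a polyadenylation signal 28, 21 and 34 bases before the annotated end. The same stem-loop letters thus stand in H2ac24 and in H2ac25, whose levels behaved differently below.

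Promoters could be matched for 58 of the 67 genes (RefSeq, GRCm38.p6, 250 bases before to 50 after the annotated start). In H2ac24 the annotated start is the first base of the coding sequence. Windows therefore need not be aligned on the start of transcription, and the bases before the start can include transcribed sequence. Both strands were searched for 4 motifs. TATAAA was found in 58.6% of the 58 windows against 15.7% of the windows of all 27025 genes, and CCAAT in 84.5% against 41.1%. Every H1, H2A, H2B and H3 window held CCAAT, but only 3 of 11 H4 windows did (27.3%). The octamer ATTTGCAT was confined to H2A (35.3% of windows) and H2B (50%), and stood at 1.97% over all genes. AAACACA, known from H1 promoters, was in 4 of 5 H1 windows (80%) against 8.22% of all genes. The 150 bases before the start are shown for 5 genes, with matches on either strand in capitals. H2ac24, H2ac8, H1f5 and H1f4 were 2-fold higher in cycling blood endothelial and tumor-gated cells below, and H1f0 was not. H1f2, H2bc4 and H2ac25, which were not 2-fold higher there either, are not shown. H1f2 is among the 5 H1 windows, all with CCAAT, and whether the motifs go with the response was not tested. On the opposite strand CCAAT reads as ATTGG. Likewise TATAAA becomes, read from there, TTTATA. The octamer then appears as ATGCAAAT.
H2ac24 (chr13:21833476-21833625, minus strand): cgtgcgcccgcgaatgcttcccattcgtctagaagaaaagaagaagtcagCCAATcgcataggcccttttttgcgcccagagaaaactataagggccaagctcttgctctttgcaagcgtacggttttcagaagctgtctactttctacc
H2ac8 (chr13:23571221-23571370, minus strand): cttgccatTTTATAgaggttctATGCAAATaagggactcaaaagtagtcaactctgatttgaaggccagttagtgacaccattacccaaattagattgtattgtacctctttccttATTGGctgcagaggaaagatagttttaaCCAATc
H1f5 (chr13:21780626-21780775, minus strand): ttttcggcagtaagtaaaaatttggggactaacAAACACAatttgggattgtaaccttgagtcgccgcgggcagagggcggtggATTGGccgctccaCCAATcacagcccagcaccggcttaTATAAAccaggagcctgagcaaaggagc
H1f4 (chr13:23622559-23622708, minus strand): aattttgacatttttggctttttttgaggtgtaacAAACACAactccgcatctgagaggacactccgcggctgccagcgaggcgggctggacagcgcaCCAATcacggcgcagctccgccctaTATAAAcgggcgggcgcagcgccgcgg
H1f0 (chr15:79028062-79028211, plus strand): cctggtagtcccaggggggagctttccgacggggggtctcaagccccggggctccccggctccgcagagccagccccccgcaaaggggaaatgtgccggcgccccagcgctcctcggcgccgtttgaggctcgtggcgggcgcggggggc

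In the H2ac8 stretch TTTATA and ATGCAAAT are matches on the opposite strand, the strand of its divergent neighbour H2bc8. H1f5 and H1f4 carry the H1 motif AAACACA, then CCAAT and, nearest the start, TATAAA, and the H1f0 window held none of the 4 motifs. These are letter matches in a fixed window and not measured sites of binding.

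The first question was how strongly the 66 genes differed between cycling and non-cycling blood endothelial cells. In PyMT-M the summed level was 1910.3 CPM (1808 to 2017) in cycling against 349 CPM in non-cycling cells, which is 5.47-fold (log2 ratio 2.45, 2.31 to 2.59). The PyMT-N cells had 1837 CPM and 308 CPM, or 5.96-fold (2.57, 2.51 to 2.64). Both libraries thus reached nearly the same level from nearly the same base. H2ac24, the gene with most UMIs, did not make this difference alone, as the log2 ratios without it were 2.23 and 2.17. Of 67 genes, 51 had a higher CPM in cycling cells of PyMT-M, 7 a lower one and 9 no UMI in either state. In PyMT-N 56 were higher, 6 lower and 5 without UMIs. Of the higher ones, 20 in PyMT-M and 6 in PyMT-N had no UMI in non-cycling cells, and the share of all genes was not counted.

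A gene was called when it had at least 50 UMIs over both groups and differed by at least 2-fold. In PyMT-N 20 histone genes had enough UMIs, and 16 were higher in cycling blood endothelial cells, where 8.06% of all 11173 genes so tested were. None was 2-fold lower (5.74% of all genes). In the smaller PyMT-M group 8 had enough UMIs, of which 4 were higher (5.19% of all genes) and 2 lower (3.33%). The PyMT-N count was 6 with cells thinned to 5000 UMIs and 33 with a minimum of 20 UMIs, and the PyMT-M count 12 with that minimum. Genes almost silent in non-cycling cells reached 50 UMIs only through the cycling cells, so these counts describe the genes that could be measured.

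The families differed. H2A differed most, with 968 CPM in cycling and 55.7 CPM in non-cycling PyMT-M cells (log2 ratio 4.12, 3.81 to 4.45) and 906 and 43.0 CPM in those of PyMT-N (4.40, 4.26 to 4.54). H3 followed with log2 ratios of 3.80 and 3.69, then H1 (without H1f0) with 2.89 and 2.25 and H4 with 1.57 and 2.17. Most H2A UMIs in cycling cells were of H2ac24 and H2ac8, given below, so the first place of H2A rests largely on this pair. The H2A ratio without this pair was not computed. H2B stood apart. Its summed level was 163 CPM in cycling and 175 CPM in non-cycling PyMT-M cells (log2 ratio -0.10, -0.43 to 0.22) and 212 against 130 CPM in PyMT-N (0.71, 0.56 to 0.86).

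**Figure D1:**
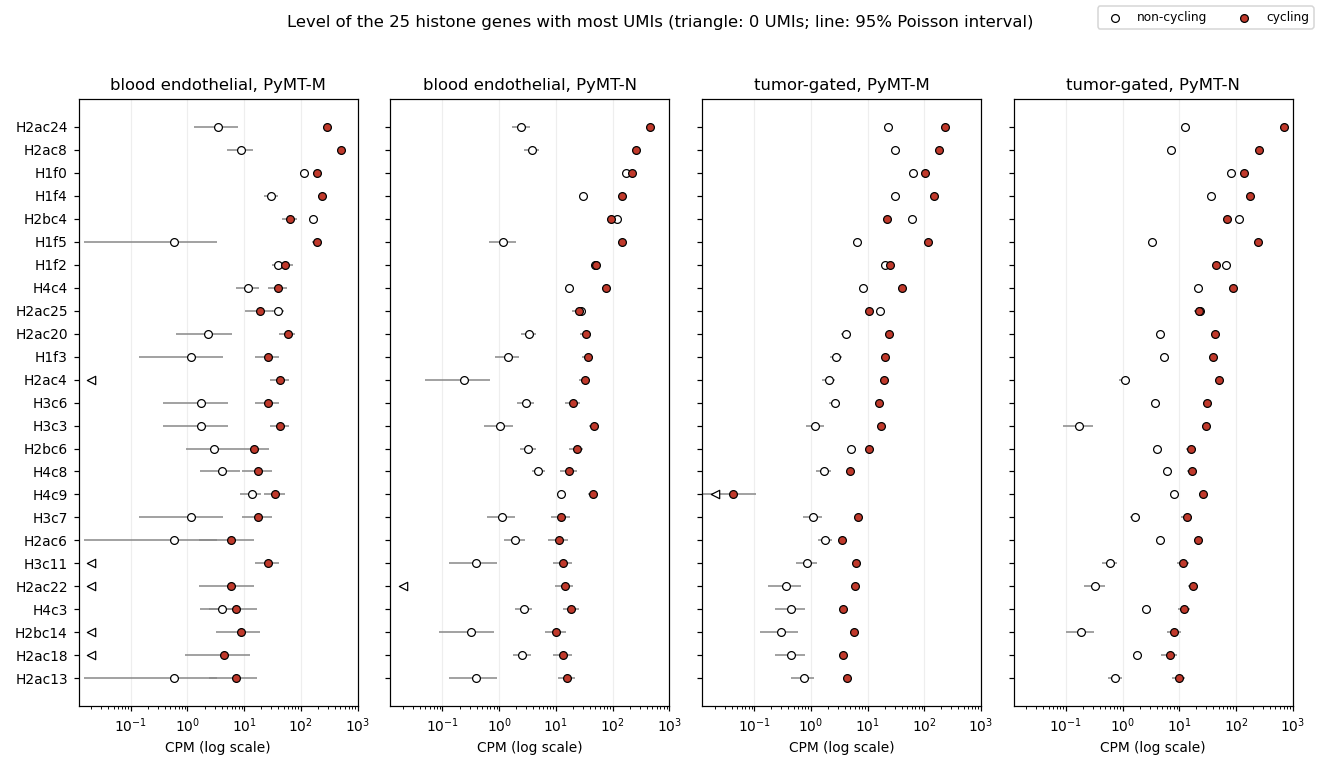
The horizontal axis gives the level of each of the 25 histone genes with most UMIs, in CPM on a log scale, in cycling (filled) and non-cycling (open) cells of 4 groups. H2ac24, H2ac8 and H1f5 lie far to the right in cycling blood endothelial cells, whereas H2bc4, H1f2 and H2ac25 have both symbols close together or reversed.

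Among the core H2A genes, H2ac24 was at 293 CPM in cycling against 3.52 CPM in non-cycling PyMT-M blood endothelial cells, and at 464 against 2.46 CPM in PyMT-N. H2ac8 was at 502 against 8.79 CPM in PyMT-M and at 263 against 3.73 CPM in PyMT-N. The log2 ratios were 6.38 and 7.56 for H2ac24 and 5.84 and 6.14 for H2ac8, so both libraries showed the same direction, with this pair of genes in opposite order of UMIs. H2ac4 was at 42.5 CPM in cycling PyMT-M cells with 0 UMIs in non-cycling ones, and at 32.1 against 0.238 CPM in those of PyMT-N (log2 ratio 7.07, 5.47 to 9.39). H2ac20 was at 58.6 and 33.9 CPM in cycling cells against 2.34 and 3.34 CPM in non-cycling cells. H2ac22 had 32 UMIs in cycling PyMT-N cells and none in the 928 non-cycling ones.

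The linker histones did not move as a block. H1f5 was at 192 CPM in cycling against 0.586 CPM in non-cycling PyMT-M cells, the latter a single UMI, and at 149 against 1.19 CPM in PyMT-N (log2 ratio 6.96, 6.22 to 7.82). H1f3 was at 26.4 against 1.17 CPM in PyMT-M and 36.6 against 1.43 CPM in PyMT-N (log2 ratio 4.68, 3.93 to 5.50). H1f4 had a substantial level outside the cycle, at 29.9 and 30.6 CPM, and reached 234 and 145 CPM in cycling cells (log2 ratios 2.97 and 2.25). H1f2 was level with 52.7 against 39.9 CPM in PyMT-M and 50.4 against 49.7 CPM in PyMT-N (log2 ratio 0.02, -0.28 to 0.31). H1f1, the scarcest, had 16 and 32 UMIs in cycling cells and 0 and 3 in non-cycling ones.

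Of the H3 genes, H3c3 was at 42.5 and 46.9 CPM in cycling cells of PyMT-M and PyMT-N against 1.76 and 1.03 CPM in non-cycling cells (log2 ratio 5.50 in PyMT-N, 4.67 to 6.46). H3c6 was at 26.4 and 20.1 CPM against 1.76 and 2.94 CPM. Both encode canonical H3. Of the H4 genes, H4c4 was at 39.6 against 11.7 CPM in PyMT-M and 76.8 against 17.2 CPM in PyMT-N (log2 ratio 2.16, 1.86 to 2.46). H4c9 was at 35.2 against 13.5 CPM and 45.1 against 12.2 CPM (log2 ratio 1.89 in PyMT-N, 1.51 to 2.26), and H4c8 at 17.6 against 4.10 CPM and 16.96 against 4.93 CPM. H4c4 and H4c9 thus stood above 10 CPM in non-cycling cells of both libraries, where H2ac24 and H1f5 were at 0.586 to 3.52 CPM.

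A group of 4 genes with many UMIs was not 2-fold higher in cycling blood endothelial cells of either library. H2bc4 had the most UMIs of the 66 genes in non-cycling cells, at 165 CPM in PyMT-M and 119.8 CPM in PyMT-N, and was lower in cycling cells, at 64.5 CPM (log2 ratio -1.35, -1.85 to -0.89) and 95.1 CPM (-0.33, -0.55 to -0.12). H2ac25 was at 19.0 against 39.3 CPM in PyMT-M (log2 ratio -1.04, -2.03 to -0.17) and at 25.9 against 27.3 CPM in PyMT-N. These were the 2 genes called lower in PyMT-M. The others were H1f2, given above, and H1f0, which was at 193 against 113 CPM in PyMT-M (log2 ratio 0.78, 0.45 to 1.11) and 221 against 175 CPM in PyMT-N (0.34, 0.20 to 0.48). H2bc4 dominated the H2B sum and supplied 281 of its 298 UMIs in non-cycling PyMT-M cells and 1507 of 1635 in PyMT-N. Other H2B genes were higher in cycling PyMT-N cells, as H2bc6 (23.2 against 3.26 CPM, log2 ratio 2.83) and H2bc11 (26.3 against 1.19 CPM, 4.47).

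The remaining 7 of the 25 genes with most UMIs had few UMIs in endothelial cells. H4c3 was at 18.8 against 2.70 CPM in PyMT-N (log2 ratio 2.79, 2.11 to 3.49) and had 5 and 7 UMIs in PyMT-M. H2ac18 was at 13.4 against 2.54 CPM in PyMT-N (2.40, 1.63 to 3.16), and its near-identical neighbour H2ac19 can share its reads. H3c11 had 18 UMIs in cycling and 0 in non-cycling PyMT-M cells and 30 and 5 in PyMT-N. The other 4 also leaned to cycling cells in both libraries. In PyMT-N cells H2ac13 was at 15.6 against 0.397 CPM, H3c7 at 12.5 against 1.11 CPM, H2bc14 at 10.3 against 0.318 CPM and H2ac6 at 11.2 against 1.91 CPM. All 4 had between 4 and 12 UMIs in cycling PyMT-M cells and at most 2 in non-cycling ones. In tumor-gated cells all 7 were 2-fold higher in the cycling cells of both libraries, from H2ac6 in PyMT-M (3.58 against 1.78 CPM, 1.01, 0.57 to 1.47) to H2bc14 in PyMT-N (8.19 against 0.186 CPM, 5.46, 4.55 to 6.47).

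In tumor-gated cells the same contrast was seen with far more UMIs. The 66 genes summed to 979 CPM in cycling against 237 CPM in non-cycling cells of PyMT-M (log2 ratio 2.04, 2.01 to 2.08) and to 2105 against 347 CPM in PyMT-N (2.60, 2.57 to 2.63). In PyMT-M 39 of 50 measured genes were 2-fold higher (3.28% of all genes) and 1 was lower (0.997%). In PyMT-N 33 of 40 were higher (6.38%) and 1 was lower (6.07%). The first count was 17 without cells holding markers of other classes, and the PyMT-N count 14 with cells thinned to 5000 UMIs. The gene lower in PyMT-M was H2bc4, at 21.98 against 61.4 CPM (log2 ratio -1.48, -1.58 to -1.39). That in PyMT-N was H3c14, with 1 UMI in cycling and 68 in non-cycling cells (-2.48, -7.81 to 0.04). H2A again differed most in PyMT-N, at 1151 against 57.0 CPM (4.34, 4.28 to 4.39), and less in PyMT-M, at 490 against 80.8 CPM (2.60). Most H2A UMIs in cycling tumor-gated cells were again of H2ac24 and H2ac8. The H2B sum was lower in cycling than in non-cycling cells of PyMT-M (58.0 against 71.3 CPM, -0.30, -0.37 to -0.22) and higher in those of PyMT-N (174 against 124 CPM, 0.48, 0.39 to 0.58). Of 8 genes with enough UMIs in both classes and both libraries, H2ac24, H2ac8, H1f4 and H1f5 were 2-fold higher in all 4 contrasts, and H1f0, H1f2, H2bc4 and H2ac25 in none.

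The ratios of H2ac24, H2ac8 and H1f5 were smaller in PyMT-M tumor-gated cells than in the other groups. H2ac24 was at 229.9 against 22.9 CPM there (log2 ratio 3.33, 3.21 to 3.44) and at 698 against 12.5 CPM in PyMT-N (5.81, 5.70 to 5.91). H1f5 was at 119 against 6.57 CPM (4.18) and at 242 against 3.30 CPM (6.20). The split itself differed between these groups, since 63.3% of non-cycling PyMT-M tumor-gated cells held 1 to 3 UMIs of the 4 proliferation genes, against 17.1% in PyMT-N, 24.9% of the PyMT-M and 12.7% of the PyMT-N non-cycling blood endothelial cells. With non-cycling restricted to cells with 0 such UMIs, an alternative added after the data were seen, the PyMT-M log2 ratio of the sum was 2.36.

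In lymphatic cells of PyMT-N, 17 cycling cells reached 3974 CPM against 291 CPM in 182 non-cycling cells (log2 ratio 3.77, 3.64 to 3.90), and 6 of 9 measured genes were higher (4.25% of all genes), none lower (6.97%). H2ac24 was at 1019.6 against 5.41 CPM and H2ac8 at 918 against 3.74 CPM. H1f0, at 438 against 139.8 CPM (log2 ratio 1.65, 1.38 to 1.91), was over 2-fold higher here. These levels rest on 17 cells of 1 library.

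**Figure D2:**
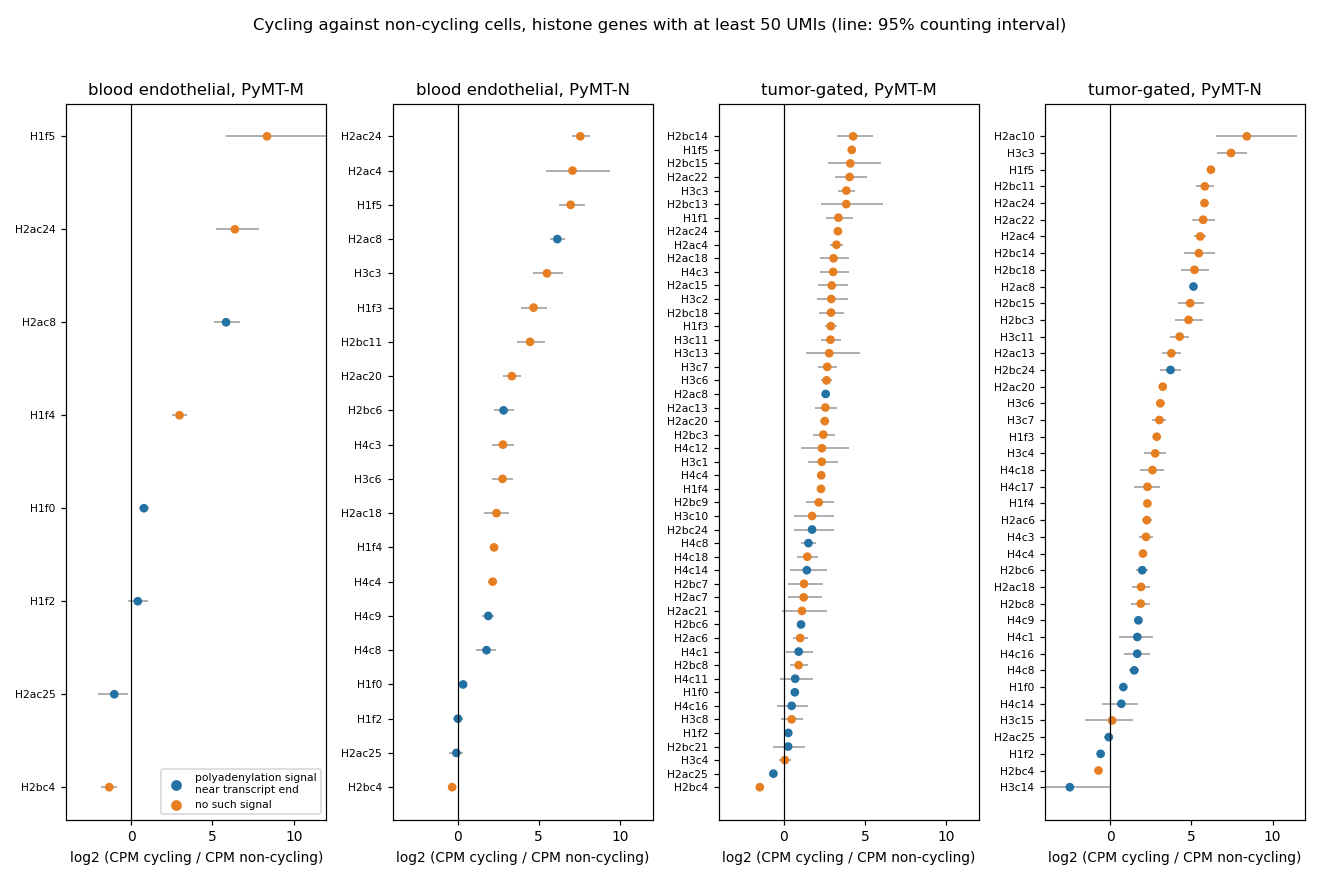
Points are log2 ratios of CPM in cycling over non-cycling cells for each histone gene with at least 50 UMIs, lines the counting intervals (shortened at the axis limit), and colour tells whether a polyadenylation signal lies within 50 bases of the transcript end. The genes with the signal (blue) include H2ac25, H1f2 and H1f0 with less than a 2-fold difference in each panel, but for H2ac25 at -1.04 in PyMT-M blood endothelial cells. Other genes with the signal are 2-fold higher, H2ac8 in every panel, and H2bc4 is a low gene without it (orange).

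The difference between the states varied with the annotated transcript end. Genes without the signal include 18 in which no stem-loop was found either, and their annotated ends may be incomplete. The 17 genes with a polyadenylation signal near the end supplied 39.97% (37.4 to 42.6) of all histone UMIs in cycling and 48.7% (45.2 to 52.3) in non-cycling PyMT-M blood endothelial cells. In PyMT-N the shares were 32.6% (31.3 to 34.0) and 58.7% (57.4 to 59.9). They were 31.5% and 46.8% in PyMT-M tumor-gated cells, 24.1% and 47.3% in those of PyMT-N, and 37.1% and 58.1% in lymphatic cells. These shares include H1f0. Over the other 66 genes, a set added after the data were seen, the share was not lower in cycling PyMT-M blood endothelial cells, at 33.9% (31.3 to 36.5) against 32.2% (28.5 to 36.1) in non-cycling ones. In the other 4 groups it was lower in cycling cells with and without H1f0, as in PyMT-N blood endothelial cells without it, at 24.5% and 35.2%. Among measured genes the median log2 ratio was 0.59 over 4 genes with the signal and 4.68 over 4 without it in PyMT-M blood endothelial cells, and 1.78 over 7 and 3.35 over 13 in those of PyMT-N. In PyMT-N 4 of the 7 with the signal (H2ac8, H2bc6, H4c9 and H4c8) and 12 of the 13 without it were 2-fold higher in cycling cells (8.06% of all genes). In PyMT-M 1 of 4 and 3 of 4 were (5.19%). In PyMT-N H2ac8, with the signal, had a log2 ratio of 6.14, and H2bc4, with no signal within the window, was at -0.33. In the tumor-gated cells the medians were 0.80 and 2.65 in PyMT-M (12 and 38 genes) and 1.57 and 3.16 in PyMT-N (12 and 28 genes). There 5 with the signal and 34 without it were 2-fold higher in cycling PyMT-M cells (3.28% of all genes). In PyMT-N 7 and 26 were (6.38%). All genes tested had medians between -0.08 and 0.06 in these 4 contrasts. Histone genes almost silent in non-cycling cells entered the medians by transcript end only through their cycling cells. The filter itself can therefore raise these medians, and they describe only the genes that could be measured.

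The share of cells with at least 1 UMI was read for H2ac24, and it depends on depth and capture, so that 0 UMIs does not show a cell without the transcript. H2ac24 was detected in 66.2% (54.3 to 76.8) of 74 cycling PyMT-M and 52.3% (42.5 to 62.1) of 107 cycling PyMT-N blood endothelial cells, against 2.53% and 2.69% of non-cycling ones. The non-cycling shares, at median depths of 6748 and 12393 UMIs, are the background against which the cycling shares stand. In tumor-gated cells the shares were 80.6% and 77.5% in cycling and 27.1% and 19.0% in non-cycling cells. Thinned to 5000 UMIs per cell, which left out 1 cycling and 21 non-cycling PyMT-M and 15 non-cycling PyMT-N blood endothelial cells and 2 and 1 non-cycling tumor-gated cells, the shares were 60.3% and 38.3% in cycling and 2.31% and 1.31% in non-cycling blood endothelial cells. For tumor-gated cells they fell to 52.6% and 57.6% in cycling and 8.77% and 5.79% in non-cycling cells.

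The next question was where in the cycle the level was highest. Each cycling cell was placed by the share of S-phase genes among its UMIs of 28 S-phase and 25 G2/M genes, neither list holding a histone. Outside PyMT-M blood endothelial cells, S-leaning cells (at least 60% S) as a whole had less captured histone RNA than G2/M-leaning ones (at most 40%). The S-leaning cells were not uniform, as the steps given below show. Since capture of stem-loop transcripts is partial, these values do not show in which phase total histone RNA is highest. The sum of the 66 genes was 998 against 2217 CPM in PyMT-N blood endothelial cells (log2 ratio -1.15, -1.26 to -1.05), 460 against 1139 CPM in PyMT-M tumor-gated cells (-1.31) and 949 against 2638 CPM in PyMT-N tumor-gated cells (-1.47). The last ratio ranged from -0.89 with the cycling limit scaled to depth to -2.28 with cycling from 2 UMIs, that of PyMT-M tumor-gated cells from -0.73 to -1.59 and that of PyMT-N blood endothelial cells from -0.73 to -1.38, over the alternatives tried. PyMT-M blood endothelial cells did not separate, at 1731 and 1908 CPM (-0.14, -0.33 to 0.05). Of measured genes 11 of 15 were 2-fold lower in S-leaning PyMT-N blood endothelial cells (3.56% of all genes), 33 of 45 in PyMT-M tumor-gated (1.38%) and 21 of 23 in PyMT-N tumor-gated cells (2.93%). None of 5 was in PyMT-M blood endothelial cells (3.39%). No measured gene was 2-fold higher in S-leaning cells of any of these groups, where 2.43% and 2.97% of all genes were in blood endothelial and 1.01% and 1.62% in tumor-gated cells of PyMT-M and PyMT-N. The minimum of UMIs was over S-leaning and G2/M-leaning cells together, and the latter held more histone UMIs in each group. Genes could thus enter mainly through the G2/M-leaning cells, so these counts describe only the genes that could be measured. H1f0, although replication-independent, was lower in S-leaning cells of every group as well. In blood endothelial cells it was at 129 against 291 CPM in PyMT-N (-1.17, -1.48 to -0.87). In those of PyMT-M, where the sum did not separate, it was at 147 against 282 CPM (-0.94, -1.55 to -0.34). In tumor-gated cells its log2 ratios were -1.25 in PyMT-M and -1.52 in PyMT-N. H2bc4 in PyMT-M tumor-gated cells went the other way (log2 ratio 0.63, 0.48 to 0.77), whereas it was lower in S-leaning cells of PyMT-N, by -1.44 in blood endothelial and -0.67 in tumor-gated cells.

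In steps of 20% in the S share, the sum was lowest in the highest step of all 4 groups, with its top in the second or the middle step. In PyMT-N blood endothelial cells the sum was 1653, 2987, 4463, 1738 and 299.5 CPM from the lowest to the highest S share, the middle step resting on only 8 cells. In PyMT-N tumor-gated cells it was 1693, 3303, 3075, 2044 and 276 CPM. The highest step, with 20 and 35 cells, was thus no higher than the non-cycling level of 308 and 347 CPM although its cells were called cycling. In the blood endothelial cells its interval (254 to 351 CPM) held the non-cycling level. This step made up 20 of the 42 S-leaning blood endothelial and 35 of the 57 S-leaning tumor-gated cells of PyMT-N. The fourth step, with the other S-leaning cells, was not below the lowest step in either group, though below the second. In PyMT-M tumor-gated cells, given below, the fourth step was under all lower ones. Pcna, the replication clamp and a member of the S list, was at 46.6, 195, 377, 369.7 and 243 CPM over the same steps in PyMT-N blood endothelial cells, and Slbp at 30.5, 82.7, 156, 135 and 88.1 CPM. H1f5 peaked in the middle step in all 4 groups, at 273 and 468 CPM in blood endothelial and 170 and 432 CPM in tumor-gated cells of PyMT-M and PyMT-N. In PyMT-M tumor-gated cells the sum was 1142, 1135, 1172, 485 and 203 CPM, flat up to the middle step. PyMT-M blood endothelial cells had 1593, 2197, 2157, 2017 and 889 CPM, with 8 cells in the last step. The steps are ranges of a score and not cell types, and 14 of 107, 17 of 74, 30 of 151 and 1063 of 3493 cycling cells lay within 0.05 of a limit of the S share.

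**Figure D3:**
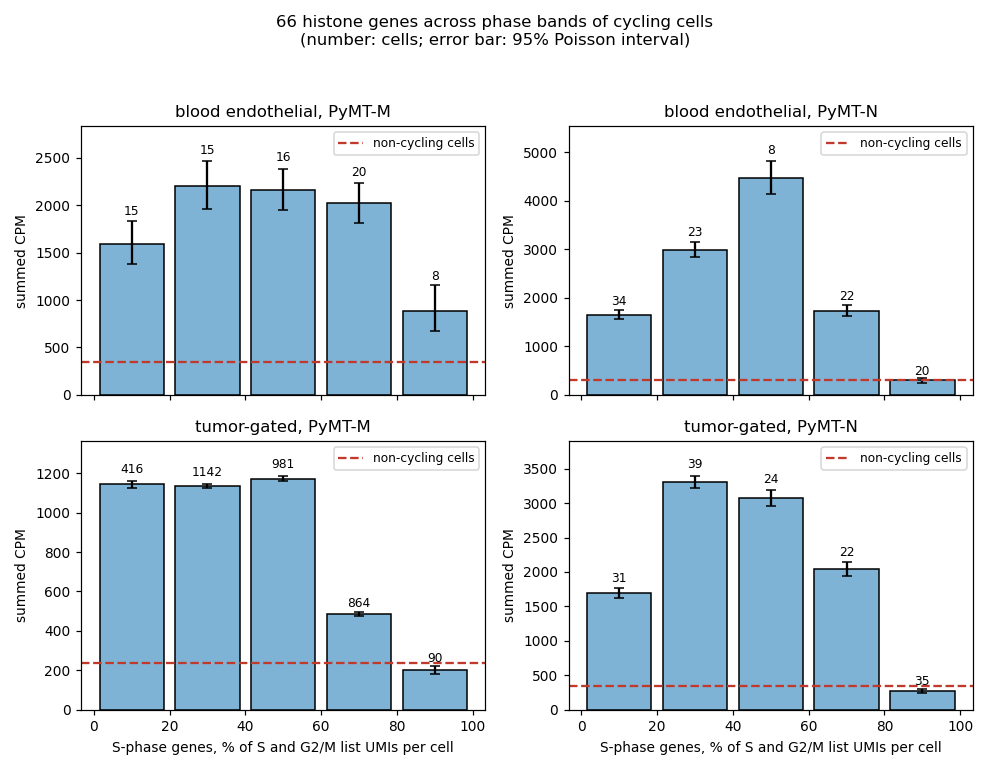
Bars give the summed level of the 66 genes in CPM for cycling cells in steps of the S-gene share (%), with the number of cells and the counting interval, and the dashed line the non-cycling level. The last step falls below the dashed line in 3 of the 4 groups, though in PyMT-N blood endothelial cells its interval crosses the line. In PyMT-M blood endothelial cells it stays above at 889 CPM.

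Between the tumor models, cycling blood endothelial cells had nearly the same sum, at 1910.3 CPM in PyMT-M and 1837 CPM in PyMT-N (log2 of their ratio, with PyMT-M as numerator here and below, 0.06, -0.03 to 0.15). Its sign turned under 5 alternatives, 1 of them added after the data were seen, and furthest with the cycling limit scaled to depth (-0.37). The median cycling cell held 8676 UMIs in the first library and 18291 in the second. None of 18 measured genes was 2-fold higher (2.99% of all genes) or lower (5.68%). The 2 genes with most UMIs went opposite ways, H2ac8 higher in PyMT-M (502 against 263 CPM, 0.93, 0.74 to 1.13) and H2ac24 lower (293 against 464 CPM, -0.66, -0.89 to -0.44). In non-cycling blood endothelial cells the sum was 349 against 308 CPM (0.18, 0.05 to 0.30), with H2ac8 the only gene of 9 called higher (3.62% of all genes), on 15 and 47 UMIs, and none lower (7.9%). H1f0 was lower in PyMT-M, at 113 against 175 CPM (-0.64, -0.86 to -0.42). Of the cell-cycle lists, 12 of 20 measured S genes and 12 of 14 measured G2/M genes were 2-fold higher in these non-cycling PyMT-M cells. Their median ratios were 1.30 and 1.83. The cycling limit of 4 UMIs was fixed, while the median non-cycling cell was shallower in PyMT-M (6748 against 12393 UMIs). What the cell-cycle genes and depth contribute to the non-cycling histone values was not tested. Immune genes summed to 54.8 CPM in the blood endothelial cells of PyMT-M and 531 CPM in those of PyMT-N, and fibroblast and pericyte genes to 148 and 10.3 CPM, with Lum at 0 in both. Their part in these values was not tested.

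Cycling tumor-gated cells held less captured histone RNA in PyMT-M than in PyMT-N, 979 against 2105 CPM (log2 ratio -1.10, -1.13 to -1.08), where the median of all genes was 0.05. Of 67 genes 61 had the lower CPM in PyMT-M. Among 53 measured ones 26 were 2-fold lower (16.9% of all genes) and only H2bc13, on 149 and 4 UMIs (1.19, -0.19 to 3.09), was higher (18.3%). The count of lower genes was 15 with cycling from 2 UMIs, 17 with cells thinned to 5000 UMIs and 40 with the cycling limit scaled to depth, and the ratio of the sum ran from -0.64 to -1.28 over the alternatives. H2ac24 was at 229.9 against 698 CPM (-1.60), H1f5 at 119 against 242 CPM (-1.03), H4c4 at 41.3 against 88.5 CPM (-1.10) and H2bc4 at 21.98 against 70.01 CPM (-1.67). H1f1 was level at 4.94 and 4.88 CPM. Lists of the S-phase and G2/M genes had median ratios of 0.12 and -0.27 in the same cells. Of 28 S genes 3 were higher and 1 lower, and of 25 G2/M genes 1 was lower. The genes of the cycling limit differed in make-up. Over all tumor-gated cells Mki67, Top2a, Mcm5 and Pclaf were at 31.8, 286, 58.6 and 88.5 CPM in PyMT-M. In PyMT-N they were at 14.9, 33.8, 5.95 and 19.99 CPM. Cells called cycling thus need not be in the same state in both libraries, and the part of this in the histone values was not tested.

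In non-cycling tumor-gated cells the sum was also lower in PyMT-M, 237 against 347 CPM (-0.55, -0.59 to -0.51; median of all genes -0.18). With cycling from 8 UMIs this ratio was -0.061. There 11 of 31 measured genes were lower (26.4% of all genes) and 2 higher (17.3%). Those lower numbered 5 with cells thinned to 5000 UMIs and 3 without cells holding markers of other classes. The genes higher were H2ac8 (30.7 against 7.28 CPM, 2.08, 1.92 to 2.24) and H3c4 (2.86 against 0.817 CPM, 1.81), while H1f2 (20.3 against 67.8 CPM, -1.74) and H4c4 (8.39 against 21.8 CPM, -1.38) were lower. In these same cells 23 of 28 S and all 25 G2/M genes were higher in PyMT-M (median ratios 2.09 and 4.37), and the part of that in the histone values was not tested.

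**Figure D4:**
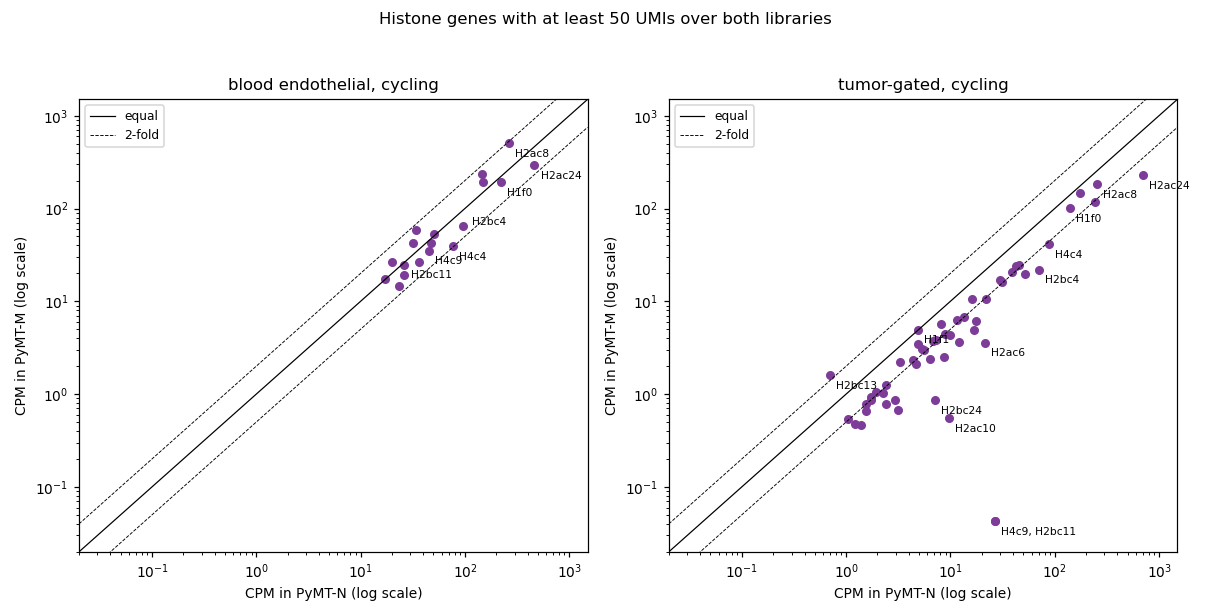
Each point is a histone gene with at least 50 UMIs, with its CPM in cycling PyMT-N cells on the horizontal and in cycling PyMT-M cells on the vertical axis (both log scales), and lines mark equality and 2-fold. In blood endothelial cells all points lie within the 2-fold lines, whereas in tumor-gated cells most lie below equality and H4c9 and H2bc11 fall far below.

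A stretch of neighbouring genes stood out in PyMT-M tumor-gated cells, and was singled out after its values were seen. The gene order of chromosome 13 came from the GRCm38 annotation, keeping histone genes and other genes with at least 10 UMIs in PyMT-N tumor-gated cells. In that order H2ac12, H2bc12, H4c9, H2ac11 and H2bc11 follow each other. In PyMT-M tumor-gated cells they had 0, 0, 4, 5 and 4 UMIs, and in PyMT-N tumor-gated cells 14, 32, 716, 41 and 187. H4c9 was thus 286-fold (111 to 1052) and H2bc11 74.7-fold (28.7 to 277) lower in PyMT-M. The blood endothelial cells of the same PyMT-M library had 77 UMIs of the 5 genes, at 32.2 CPM, in 59 of 311 cells (19.0%, 14.8 to 23.8), whereas the 4864 tumor-gated cells had 13 UMIs, at 0.108 CPM (0.267% of cells). In PyMT-N the 5 genes summed to 25.9 CPM in blood endothelial, 13.1 CPM in tumor-gated and 25.3 CPM in lymphatic cells. The 7 lymphatic cells of PyMT-M had none. The PyMT-M tumor-gated cells thus stood over 100-fold below each of the 4 other groups with UMIs. In cycling PyMT-M blood endothelial cells H4c9 stood at 35.2 CPM, and in cycling tumor-gated cells of the library at 0.0427 CPM.

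The low values did not end with the histone genes. Other genes entered the order only through PyMT-N tumor-gated cells, so a neighbour seen only in PyMT-M could not appear. The choice of flanking genes can therefore favour those that are low in PyMT-M. On one side of the stretch lie Zfp184 and Prss16, with 0 UMIs in PyMT-M against 214 and 64 in PyMT-N tumor-gated cells (at least 114-fold and 34.1-fold lower against a floor of 3 UMIs over the group), and Gm11290, with 150 against 690 (7.35-fold lower, 6.15 to 8.83). In blood endothelial cells Zfp184 had 1 against 14 UMIs and Prss16 0 against 1, too few for a contrast. Gm11290 was lower in PyMT-M there too, with 6 against 85 UMIs (2.28-fold, 1.01 to 6.39). Within PyMT-M its tumor-gated and blood endothelial levels did not separate (log2 ratio -1.01, -2.17 to 0.46). Beyond these flanking genes H2bc24, H2ac24 and H4c18 had 88, 22143 and 240 UMIs in PyMT-M tumor-gated cells. On the other side 4930586N03Rik had 21 against 29 UMIs (2.21-fold lower, 1.21 to 4.07). Zfp322a was at 14.3 against 19.4 CPM (1.35-fold lower, 1.26 to 1.45) and Abt1 at 20.6 against 15.3 CPM. C230035I16Rik and Gm46404 followed, 3.07-fold and 2.56-fold lower in PyMT-M. Then came Gm11335 at 0.456 against 0.199 CPM and H4c8 at 4.16 against 6.81 CPM (1.64-fold lower, 1.44 to 1.85). H4c17, next to H4c18, was a separate case with 0 against 73 UMIs (at least 38.9-fold lower). Of 56 histone genes with enough UMIs over all tumor-gated cells, 3 (H4c9, H2bc11 and H4c17) were at least 16-fold lower in PyMT-M, where 8.39% of all genes were, and none was 16-fold higher (4.8%). In all blood endothelial cells none of 24 was 16-fold lower (0.986%) or higher (0.122%). A difference of that size was thus not rare between the tumor-gated populations, and the members past it were no more frequent than all genes. Genomic DNA was not measured.

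**Figure D5:**
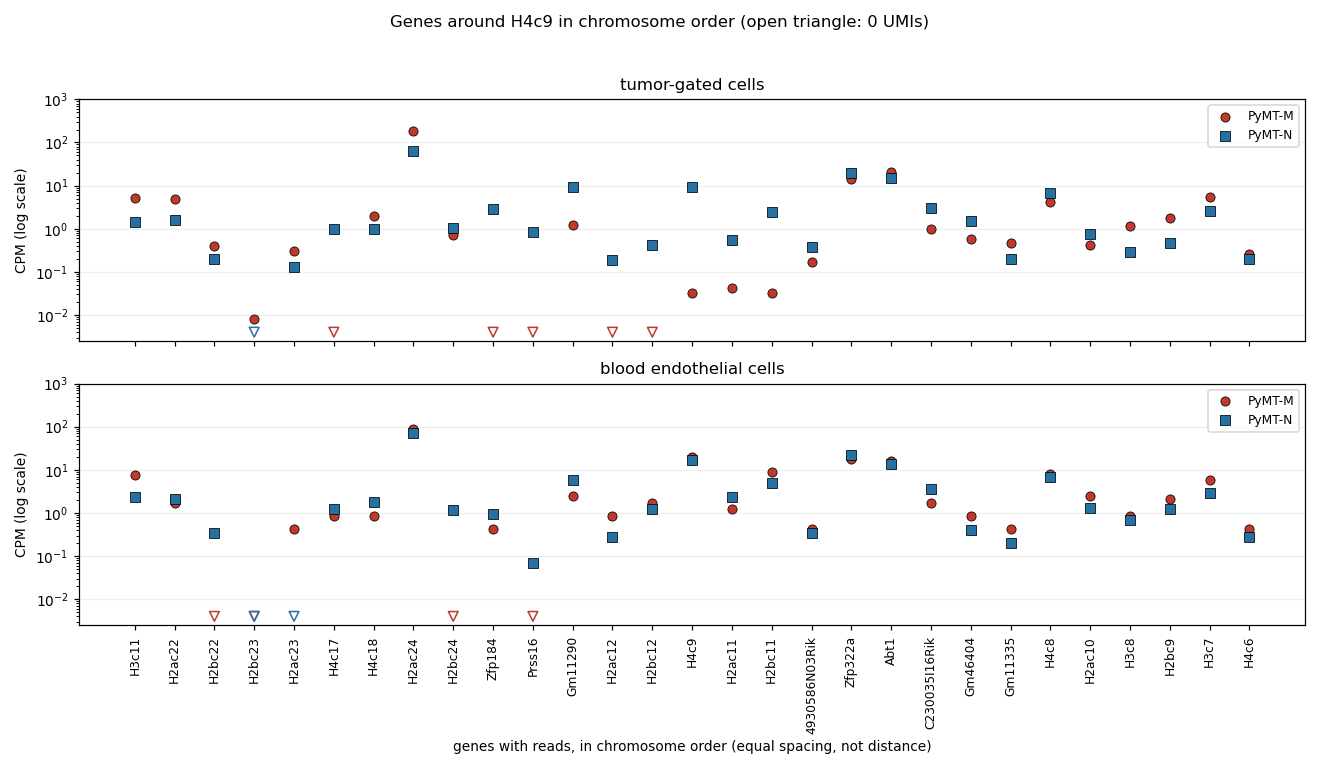
Genes with UMIs are set in chromosome order at equal spacing, with CPM on a log scale for PyMT-M (circles) and PyMT-N (squares) in tumor-gated (top) and blood endothelial cells (bottom), cycling and non-cycling together, and open triangles at 0 UMIs. From Zfp184 to H2bc11 the PyMT-M circles drop out or fall below the PyMT-N squares in tumor-gated cells, whereas in blood endothelial cells H4c9 and H2bc11 of both libraries lie close together.

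Genes that accompany histone production were read in the same cells. Cycling was defined by proliferation genes, so the counts of the S-phase and G2/M lists describe that definition. Of 10 replacement and variant histone genes, 9 were measured in PyMT-N blood endothelial cells and 5 were higher in cycling cells, where 8.06% of all genes were. Cenpa, the centromeric H3 variant, was at 189 against 11.4 CPM (log2 ratio 4.05) and H2ax, the variant phosphorylated at DNA breaks, at 147 against 16.8 CPM (3.14). H3f3a, which encodes the replication-independent H3.3 protein, was level at 1059 against 993 CPM (0.09), as was H2aj at 146 against 161 CPM (-0.15). Of 14 measured genes for histone transcription and 3′-end processing 2 were higher, a share near that of all genes. They were Eri1, an exonuclease that trims histone messenger RNA (41.1 against 14.5 CPM, 1.51), and Slbp (85.7 against 32.1 CPM, 1.42). Tut7 (-0.43) and Lsm10 (-0.22) were the lowest of that list.

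Of 21 histone chaperones and deposition factors 11 were higher, led by Asf1b (41.1 against 0.874 CPM, 5.55), which hands H3 and H4 to the replication fork machinery, and Chaf1b of chromatin assembly factor 1 (37.9 against 4.29 CPM, 3.14). Daxx and Atrx, which deposit H3.3 away from replication, were at -0.29 and 0.07. All 26 measured S genes, from Rrm2 (6.23) and Clspn (6.12) to Tyms (1.97) and Mcm6 (1.39), and all 25 G2/M genes, from Kif11 (6.99) and Nusap1 (6.78) to Ccnb2 (3.64) and Cks2 (3.26), were higher. The corresponding counts were 4 of 8, 1 of 12 and 11 of 19 for variants, processing and chaperones in PyMT-M blood endothelial cells (5.19% of all genes). They were 2 of 8, 1 of 15 and 7 of 22 in PyMT-M (3.28% of all genes) and 4 of 10, 2 of 14 and 9 of 22 in PyMT-N tumor-gated cells (6.38%), and no gene of these 3 lists was 2-fold lower in any of the 4 contrasts.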

How the data were processed

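The authors deposited unnormalized UMI counts per gene and cell barcode (Cell Ranger 8.0.0 and mm39 per the submitters' processing notes). Gene order, transcript ends and promoters came from GRCm38 tables, whose coordinates were not set against the counts. Reads shared by near-identical histone genes can be lost or split in counting (H2ac18 and H2ac19, for example), so single-gene levels are uncertain where copies exist. The members and lists were chosen with earlier results of these data known.

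Barcodes with at least 200 genes, a gene number within 2-fold of the library's median and at most 10% mitochondrial UMIs were kept, 5777 of 7821 in PyMT-M and 5354 of 6974 in PyMT-N (141067264 and 116150425 UMIs before the filter). Blood endothelial cells had at least 5 UMIs of the gate genes and at most 1 of Krt8, Krt18 and Rhox5, tumor-gated cells at least 3 of the latter, and lymphatic cells at least 3 of theirs. Cells meeting both endothelial gates (3 and 172) were counted as lymphatic. No doublet caller was run. Cells with markers of other classes, or the deepest 6% of cells, were left out as alternatives. UMIs were summed per group and divided by the group's total (CPM). Ratios carry exact conditional Poisson intervals and shares exact Clopper-Pearson intervals. A count of 0 was set against 3 UMIs over the group. Named genes were the 25 members with most UMIs, any member of opposite direction in the libraries, and the 2 highest and 2 lowest of each list in PyMT-N blood endothelial cells; others were named after their values were seen. The ratios were tested on simulated counts. Tables were handled with pandas 2.3.3 in Python 3.11.15, intervals were taken from scipy 1.17.1 with numpy 2.4.6, and plots were drawn with matplotlib 3.10.9.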

Additional observations from a re-analysis of the deposited data

Results flagged for a closer look

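H1f2, a linker histone gene with a long transcript past its stem-loop, went opposite ways in different groups under the same contrast. Its log2 ratio of cycling over non-cycling cells was 0.27 in PyMT-M tumor-gated cells and 0.75 in lymphatic cells of PyMT-N, but -0.59 in PyMT-N tumor-gated cells, with each interval on its own side of 0. The difference between the groups was not tested, since each rests on 1 library.

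Kept cells that met no gate, 595 in PyMT-M (10.3%) and 822 in PyMT-N (15.4%), lie outside the comparisons and also held histone RNA. Their summed level was 929.7 CPM in 396 cycling and 244 CPM in 199 non-cycling PyMT-M cells, and 2109 CPM in 91 cycling and 347 CPM in 731 non-cycling PyMT-N cells. These values lie near those of the tumor-gated cells of the same library.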

How the results depend on the processing

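No paired analysis was possible because each condition is 1 library. The log2 ratio of the 66 genes between cycling and non-cycling cells stayed above 1 in all 58 values over 5 groups and their alternatives. For the 25 genes with most UMIs, none of 846 alternative values of 89 single-gene ratios past 2-fold changed direction. Single-gene ratios of the other members, and those of S over G2/M, were not put through the alternatives. In cycling blood endothelial cells the PyMT-M over PyMT-N ratio was negative under 5 of the alternatives listed here, and no direction is given for it. In cycling tumor-gated cells that ratio was negative throughout. Depth limits the endothelial groups, where few genes reached 50 UMIs, and counts of genes changed with that minimum. Leaving out cells with other markers left 3 cycling tumor-gated cells in PyMT-N, so that alternative gave no values there. Values outside the counting interval of the reported one follow, with B for blood endothelial, T for tumor-gated, L for lymphatic, M for PyMT-M and N for PyMT-N. With all barcodes kept, the cycling ratio was B M 2.27 and the PyMT-M over PyMT-N ratio was B non-cycling 0.33. With cycling from 2 UMIs, the cycling ratio was B M 2.09, B N 2.26, T M 2.11, T N 2.02, L N 2.99 and the PyMT-M over PyMT-N ratio was T cycling -0.64, T non-cycling -0.72 and the S over G2/M ratio was B M -0.42, B N -1.38, T M -1.43, T N -2.28 and the genes lower in PyMT-M numbered B cycling 1, T cycling 15. With cycling from 8 UMIs, the cycling ratio was B M 2.62, B N 3.02, T M 1.71, T N 2.85, L N 4.06 and the PyMT-M over PyMT-N ratio was B cycling -0.15, T cycling -1.20, T non-cycling -0.061 and the S over G2/M ratio was B N -0.89, T M -1.14, T N -0.94 and the genes lower in PyMT-M numbered B cycling 1. With the cycling limit scaled to 20000 UMIs, the cycling ratio was B M 2.11, B N 2.70, T M 2.11, T N 2.85 and the PyMT-M over PyMT-N ratio was B cycling -0.37, T cycling -1.28 and the S over G2/M ratio was B M -0.45, B N -0.92, T M -1.24, T N -0.89 and the genes lower in PyMT-M numbered B cycling 3, T cycling 40. Without cells holding at least 2 UMIs of markers of other classes, the cycling ratio was B N 2.65, L N 4.11 and the PyMT-M over PyMT-N ratio was T non-cycling -0.71 and the S over G2/M ratio was B N -0.80, T M -1.59 and the genes higher in cycling cells numbered T M 17 and the genes lower in PyMT-M numbered B cycling 1, T non-cycling 3. Without the deepest 6% of cells, the cycling ratio was B N 2.76, T M 2.10, T N 2.79 and the PyMT-M over PyMT-N ratio was B cycling -0.10, T cycling -1.26 and the S over G2/M ratio was B N -0.73, T M -1.35, T N -1.80 and the genes lower in PyMT-M numbered B cycling 3. As means of per-cell CPM, the cycling ratio was B N 2.67, T M 1.98, T N 2.57 and the PyMT-M over PyMT-N ratio was T cycling -1.06, T non-cycling -0.47 and the S over G2/M ratio was B N -1.04 and the genes lower in PyMT-M numbered B cycling 2. With totals that leave out hemoglobin, mitochondrial and ribosomal-protein genes, the cycling ratio was T M 1.98 and the PyMT-M over PyMT-N ratio was T cycling -0.94, T non-cycling -0.29. Thinned to 5000 UMIs, the cycling ratio was B N 2.72, T M 1.98 and the PyMT-M over PyMT-N ratio was B cycling -0.074, T cycling -1.07, T non-cycling -0.46 and the S over G2/M ratio was T M -1.34, T N -1.59 and the genes higher in cycling cells numbered B N 6, T N 14, L N 3 and the genes lower in PyMT-M numbered B cycling 2, T cycling 17, T non-cycling 5 and the percent with H2ac24 was T cycling M 52.6, T non-cycling M 8.77, B cycling N 38.3, B non-cycling N 1.31, T cycling N 57.6, T non-cycling N 5.79. Thinned to 3000 UMIs, the percent with H2ac24 was B cycling M 51.4, B non-cycling M 0.844, T cycling M 40.1, T non-cycling M 6.49, B cycling N 38.3, B non-cycling N 0.539, T cycling N 55, T non-cycling N 3.15. With the phase limit at 50%, the S over G2/M ratio was B N -1.03, T M -0.73, T N -1.11. With non-cycling at 0 UMIs (added after seeing the data), the cycling ratio was T M 2.36, L N 3.63 and the PyMT-M over PyMT-N ratio was B non-cycling 0.31, T non-cycling -0.88. With the lymphatic overlap as blood endothelial (added after seeing the data), the cycling ratio was B N 2.84 and the PyMT-M over PyMT-N ratio was B cycling -0.19 and the S over G2/M ratio was B N -1.36 and the genes lower in PyMT-M numbered B cycling 3. Without H2ac24 in the sum, the cycling ratio was B M 2.23, B N 2.17, T M 1.80, T N 2.07, L N 3.37 and the PyMT-M over PyMT-N ratio was B cycling 0.24, T cycling -0.91, T non-cycling -0.64 and the S over G2/M ratio was T M -1.26. Without H1f0 (added after seeing the data), the percent of UMIs from genes with a polyadenylation signal was B cycling M 33.9, B non-cycling M 32.2, T cycling M 24.4, T non-cycling M 32.5, B cycling N 24.5, B non-cycling N 35.2, L cycling N 30.2, L non-cycling N 37.9, T cycling N 19, T non-cycling N 35. With a minimum of 20 UMIs per gene, the genes higher in cycling cells numbered B M 12, B N 33, L N 11 and the genes lower in PyMT-M numbered B cycling 6, B non-cycling 3. With only 1 UMI required in each group, the genes higher in cycling cells numbered B M 28, B N 47, T N 53, L N 38 and the genes lower in PyMT-M numbered B cycling 11, B non-cycling 4.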

Other observations

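Within the non-cycling cells the summed level of the 66 genes could be read by the number of proliferation-gene UMIs that a cell held, from 0 to 3. In PyMT-M tumor-gated cells it was 191, 239.7, 281 and 282 CPM, on 503, 365, 272 and 231 cells. In PyMT-N tumor-gated cells it was 352, 336, 308 and 262 CPM, on 2610, 421, 90 and 26 cells. The summed values thus ran in opposite directions in the libraries. The intervals at 0 and 3 UMIs were 183 to 200.1 and 267 to 298 CPM in PyMT-M, and 347 to 357 and 229 to 299 CPM in PyMT-N. They did not overlap in either library, but they cover counting error only and not the spread between cells. In blood endothelial cells the levels were 374, 288, 209 and 330 CPM in PyMT-M, on 178, 33, 12 and 14 cells. In PyMT-N they were 303, 328, 275 and 505 CPM, the last on 18 cells. The 5 neighbouring genes of chromosome 13 that were nearly absent from PyMT-M tumor-gated cells stood at 2.40 and 2.27 CPM in the cycling and non-cycling PyMT-M cells that met no gate, and at 60.6 and 9.17 CPM in those of PyMT-N.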
